A study of Mus musculus with 12 samples.

Results

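The genes described here are 10 in number, 9 that encode hypothalamic neuropeptide precursors and 1 that encodes a transcription factor of hypothalamic neurons. They were taken from a fixed list of symbols, namely Hcrt, Pmch, Trh, Oxt, Avp, Gal, Pomc, Agrp, Ghrh and Isl1. This list was chosen with earlier results of these data known. All 10 were found among the 43346 genes of the deposited count table, and 10 of 10 passed the filter on low counts that left 22553 genes to test. The counts came from 12 mouse brain libraries, 4 in each of 3 groups labelled wild type. Old_CP2 mice were 23 months old, were labelled C57BL/6;SJL-Tg and drank CP2, an inhibitor of mitochondrial complex I, at 25 mg per kg per day in water with 0.1% polyethylene glycol (PEG) from 9 months of age. Old mice matched them in age and strain and drank only the PEG vehicle, also from 9 months. Young mice were 3 months old, had the strain label C57BL/6 and were untreated. The design text of the series speaks of APP/PS1 transgenic mice instead, whereas every sample title begins with NTG, and the labels were followed here. Old and Young thus differ in age, strain label and vehicle at once, and the contributions of these 3 cannot be told apart. Total RNA came from a brain cross-section labelled as holding hippocampus and cortex, and the labels do not name the hypothalamus. Nothing in the labels says that the libraries came from separate animals, so p-values measure the spread between these libraries, which may in part be technical.

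Hypothalamic neuropeptides are made by small groups of neurons, often confined to a single nucleus, as long precursors that are cut and modified before release. Hypocretin (orexin) and melanin-concentrating hormone neurons lie in the lateral hypothalamus and act on wakefulness, sleep and feeding. Oxytocin and vasopressin come mainly from large neurons of the paraventricular and supraoptic nuclei that project to the posterior pituitary, and the arcuate nucleus holds the neurons that make proopiomelanocortin, agouti-related peptide and growth hormone-releasing hormone. In a bulk library of a brain section, fewer cells of a type and less RNA per cell cannot be told apart.

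Promoters are shown for the 4 genes with the largest fold changes between Old and Young, Hcrt and Pmch of the lateral hypothalamus and Oxt and Avp of the magnocellular neurons. Each sequence is the 250 bases before the start site of the RefSeq promoter table on GRCm38.p6, written 5′ to 3′ on the gene's own strand. Capitals mark TATAAA, the TATA box, and AGGTCA, a nuclear receptor half-site, on either strand. The RefSeq span of Oxt begins further upstream, at base 130574519.
Hcrt, chr11:100762932-100763181, minus strand: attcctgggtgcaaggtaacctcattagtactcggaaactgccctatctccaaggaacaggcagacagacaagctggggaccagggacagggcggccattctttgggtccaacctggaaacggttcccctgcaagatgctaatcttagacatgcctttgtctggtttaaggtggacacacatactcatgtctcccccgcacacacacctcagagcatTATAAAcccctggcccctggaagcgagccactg
Pmch, chr10:88090822-88091071, plus strand: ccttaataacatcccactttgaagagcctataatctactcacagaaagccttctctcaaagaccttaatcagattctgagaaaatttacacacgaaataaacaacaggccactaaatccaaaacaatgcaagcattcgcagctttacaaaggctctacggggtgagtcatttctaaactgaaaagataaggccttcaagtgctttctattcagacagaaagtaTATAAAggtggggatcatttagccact
Oxt, chr2:130575919-130576168, plus strand: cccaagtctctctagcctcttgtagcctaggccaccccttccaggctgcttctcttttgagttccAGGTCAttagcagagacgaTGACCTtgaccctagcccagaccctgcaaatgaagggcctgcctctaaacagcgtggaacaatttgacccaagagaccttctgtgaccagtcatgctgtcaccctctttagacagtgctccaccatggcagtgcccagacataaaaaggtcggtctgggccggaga
Avp, chr2:130582589-130582838, minus strand: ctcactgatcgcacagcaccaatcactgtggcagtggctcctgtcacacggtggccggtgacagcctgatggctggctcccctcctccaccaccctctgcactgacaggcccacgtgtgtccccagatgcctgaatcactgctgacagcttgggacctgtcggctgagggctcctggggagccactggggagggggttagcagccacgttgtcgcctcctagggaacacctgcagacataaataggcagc

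A promoter window was available for 9 of the 10 genes, Agrp being the exception. TATAAA was present in the windows of Hcrt, Pmch, Pomc and Ghrh, against 12.4% of 32851 mouse promoter windows of the same length. The half-site AGGTCA was present in those of Trh, Oxt, Pomc and Ghrh, against 14% of all windows, and the Oxt window held it once in each orientation. TGACG, a half-site of the cyclic AMP response element, occurred in those of Trh, Ghrh and Isl1, against 17.8% of all windows. TAATTA, a homeodomain core, occurred in those of Pomc and Ghrh, against 4.84% of all windows. Both strands were searched for every motif. No motif was shared by all 4 printed windows.

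Oxt and Avp are neighbours on chromosome 2 and are transcribed towards each other, with 3565 bases between their ends. Their precursors also share a carrier protein part, neurophysin, and a stretch of 127 coding bases across exons 1 and 2 is identical in both genes. It lies at chr2:130576328-130576715 on the plus strand in Oxt and at chr2:130581133-130582411 on the minus strand in Avp, on mm10 with the intron included in both spans. It is shown because a read that lies wholly within it cannot be assigned to either gene by its own sequence.
Oxt and Avp shared run: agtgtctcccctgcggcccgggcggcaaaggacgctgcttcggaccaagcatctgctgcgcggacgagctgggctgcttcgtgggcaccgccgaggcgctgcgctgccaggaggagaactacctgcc

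Reads were 101 bases long and paired, and the count that follows takes each read without its mate. Of the 437 windows of that length along the Oxt transcript and the 477 along Avp, 27 were common to both, so most positions of each transcript could be told from the other. The ratio of Avp to Oxt in RPKM, a level per length, ran from 1.49 to 6.98 over the 12 libraries.

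Further gene models limit the reading of 2 genes. Pmch (chr10:88091072-88092375) shares 435 of its 749 exon bases with Parpbp, a gene of the opposite strand. The library kit did not mark strand, so reads of these shared bases cannot be told apart by gene. Whether the deposited counts give such reads to 1 gene or to both was not tested. Parpbp had 0.833 to 28.1 CPM in Old_CP2, 0.819 to 10.8 CPM in Old and 25.2 to 104 CPM in Young, where CPM is the count scaled to the library's normalised depth. The deposited Agrp model (chr8:105566698-105637393) spans 70696 bases against 13151 bases in RefSeq. Its exons total 1013 bases, of which 156 lie beyond the RefSeq end and 114 overlap exons of Ctcf, a chromatin factor with 58.7 to 65.5 CPM in Old_CP2, 58.2 to 63.5 CPM in Old and 57.7 to 63.6 CPM in Young. How many Agrp reads came from those bases was not tested.

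Depth ran from 78021395 to 99449665 counts per library in Old_CP2, from 70548781 to 94741585 in Old and from 77469073 to 91549618 in Young, so that 1 CPM stood for 67.99 to 98.19 reads. The 19 cortex and hippocampus markers all passed the filter, and by edgeR 4 were higher and 1 lower in Old than in Young. These are 21.1% and 5.26%, against 3.96% and 2.74% of all tested genes. Fold changes of 14 of the 19 were nonetheless below 0, with a median of -0.048 on the log2 scale. The summed levels were 1734 to 2207 CPM in Old_CP2, 1530 to 1994 CPM in Old and 1948 to 2097 CPM in Young. The marker Slc17a7 alone averaged 832 CPM in Old. Several libraries stood apart in the 10 genes, Old_CP2 13 on the high side and Young 5 on the low side of their groups, and their values are given with each result they touch. The sum of the 10 genes was 5.94, 14.2, 71.0 and 6.59 CPM in Old_CP2 11, 12, 13 and 15. In Old 7, 8, 9 and 10 it was 20.1, 7.32, 5.52 and 28.7 CPM, and in Young 1, 3, 4 and 5 it was 154, 225, 242 and 47.9 CPM. Values of single libraries follow this order of libraries throughout. The lowest Young library, Young 5, lay below Old_CP2 13 in this sum and above every other library at 23 months.

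**Figure D1:**
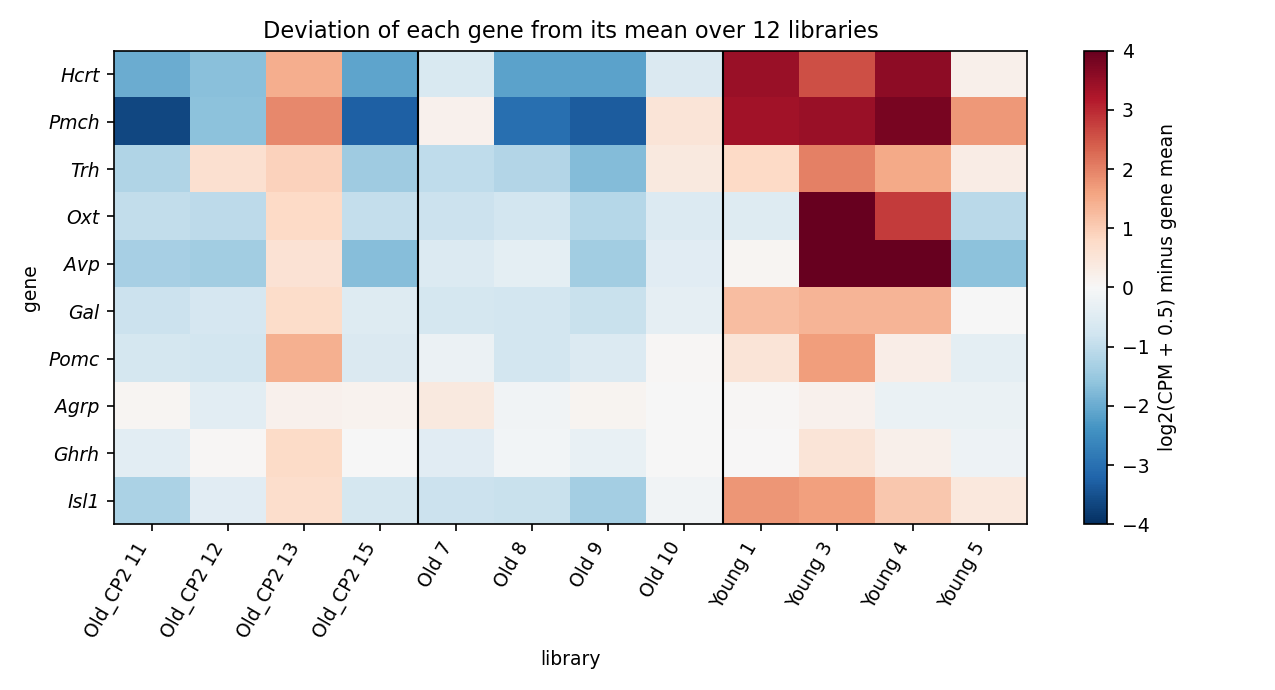
Deviation of each gene from its own mean over the 12 libraries, as log2(CPM + 0.5), with genes in rows and libraries in columns, grouped as Old_CP2, Old and Young. Deviations past 4 take the end colour. Young libraries are mostly red and the old ones mostly blue, Old_CP2 13 is on the red side in all 10 rows, and Agrp is pale throughout.

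Levels per length were ordered by the median RPKM. In Old_CP2 libraries Trh came first with a median of 2.72 RPKM, ahead of Pmch at 1.92, Agrp at 1.55, Pomc at 0.858, Gal at 0.804, Avp at 0.572, Ghrh at 0.283, Oxt at 0.189, Hcrt at 0.173 and Isl1 at 0.0957. In Old libraries Pmch came first at 6.59 RPKM, then Avp at 1.59, Agrp at 1.40, Trh at 1.08, Pomc at 1.05, Gal at 0.655, Hcrt at 0.585, Oxt at 0.288, Ghrh at 0.146 and Isl1 at 0.0552. In Young libraries Pmch stood at 118 RPKM, followed by Avp at 27.8, Hcrt at 20.6, Trh at 6.42, Oxt at 6.22, Gal at 4.38, Pomc at 2.07, Agrp at 1.21, Isl1 at 0.653 and Ghrh at 0.334. The ranges of neighbouring genes in these orders overlapped, except for Agrp and Isl1 in Young, with 1.05 to 1.53 RPKM against 0.290 to 0.864 RPKM. Pmch alone made up 7.25, 28.0, 59.9 and 11.5% of the summed RPKM of the 10 genes in Old_CP2, 60.7, 12.6, 12.3 and 58.5% in Old, and 72.1, 48.9, 58.7 and 78.7% in Young. Its share was thus at most 28.0% in 5 of 8 libraries at 23 months and at least 48.9% in the remaining 7 libraries of the series.

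Old was compared with Young to describe how these genes differ between the aged, vehicle-treated brain and the young one. Hcrt, Oxt, Gal and Isl1 were lower in Old, Agrp was the gene with a fold change above 0, and the other 5 had fold changes below -1 on the log2 scale without passing the test. In edgeR's quasi-likelihood test with Benjamini-Hochberg adjustment over 22553 genes, 4 of 10 were called lower and 0 higher, against 2.74% of all tested genes called lower and 3.96% called higher. The median log2 fold change of the 10 genes was -2.74, and that of all tested genes was -0.0034. In 9 of 10 the fold change lay below -1, against 1.89% of all tested genes. At an unadjusted p under 0.05, 7 of 10 were lower and 0 higher, against 10.3% of all tested genes lower. Because the 10 genes were chosen with earlier results of these data known, such shares here and below describe them and do not test them as a set. Several of the 10 also vary together over the libraries, so they are not 10 separate observations.

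**Figure D2:**
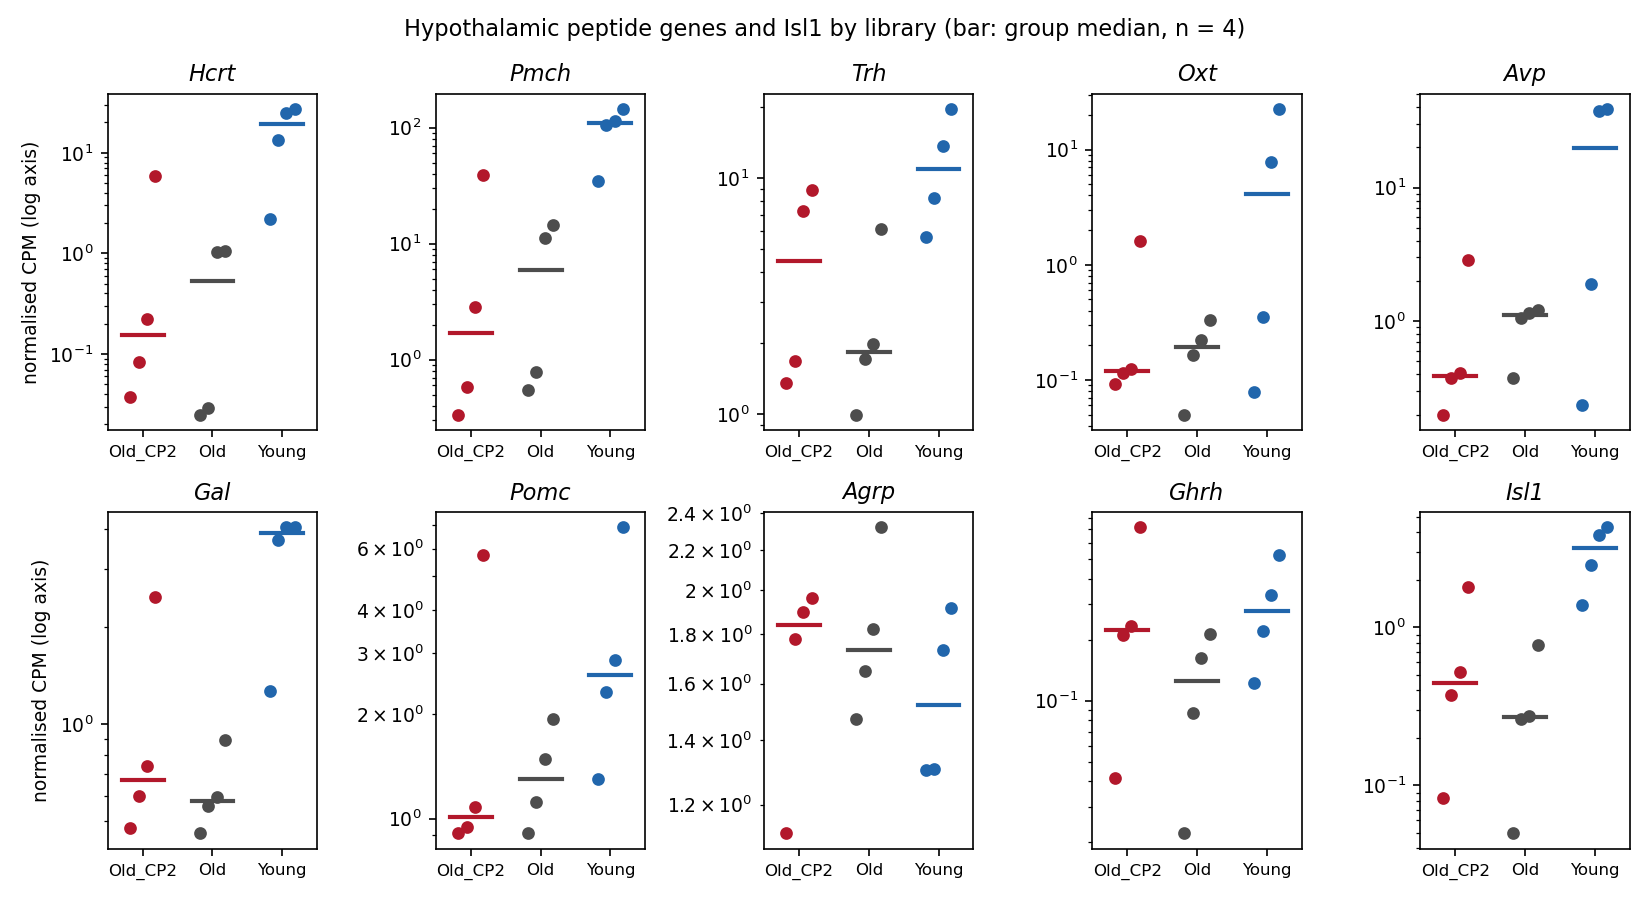
Level of each of the 10 genes in normalised CPM on a log axis, with 1 point per library, sorted by value within a group, and a bar at the group median (n = 4), for Old_CP2, Old and Young. Hcrt, Pmch, Gal and Isl1 do not overlap between Old and Young, and in Oxt and Avp the Young libraries spread over more than a factor of 100.

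Among the lateral hypothalamic genes, Hcrt (chr11:100761069-100762931), the hypocretin precursor, had 1.03, 0.0294, 0.0248 and 1.06 CPM in Old, against 25.1, 13.4, 27.3 and 2.19 CPM in Young. Old 8 and Old 9 each held 2 Hcrt reads, while Young 1 held 1936. Every Old library lay below every Young one, and Hcrt averaged 0.536 ± 0.588 CPM in Old and 17.0 ± 11.6 CPM in Young (SD, n = 4 each). The log2 fold change was -4.92 ± 1.34 (SE), with an edgeR adjusted p of 0.0455, whereas limma voom gave -5.75 and an adjusted p of 0.153.

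Pmch, the precursor of melanin-concentrating hormone, had 11.2, 0.779, 0.546 and 14.5 CPM in Old, against 106, 113, 145 and 34.4 CPM in Young. The groups did not overlap, yet Old itself was split, with Old 8 and Old 9 more than 10-fold below Old 7 and Old 10. Its log2 fold change was -3.86 ± 1.25 (SE) with an edgeR adjusted p of 0.0858, short of the threshold of 0.05. Hcrt showed the same split within Old, and in both genes Young 5 was the lowest Young library.

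Among the genes of neurosecretory neurons, Oxt (chr2:130576173-130577054), the oxytocin precursor, had 0.166, 0.221, 0.0496 and 0.329 CPM in Old, against 0.350, 22.6, 7.84 and 0.0781 CPM in Young. Young 5, with 7 Oxt reads, lay within the Old range, and Young 1 lay just above it, so the Young sum came almost wholly from Young 3 and Young 4. Oxt averaged 0.191 ± 0.116 CPM in Old and 7.73 ± 10.6 CPM in Young (SD, n = 4 each). Its log2 fold change of -5.31 ± 1.47 (SE) passed the edgeR test at an adjusted p of 0.0474. The call was lost in the edgeR fit of the 8 libraries of Old and Young (adjusted p = 0.0614) and with limma voom, where the log2 fold change was -3.19 (adjusted p = 0.499).

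Avp (chr2:130580620-130582554), which encodes the vasopressin precursor, had 1.06, 1.22, 0.372 and 1.16 CPM in Old, against 1.89, 38.9, 37.5 and 0.234 CPM in Young. As with Oxt, Young 3 and Young 4 were far above the rest, and Young 5 lay below every Old library. The Avp log2 fold change was -4.36 ± 1.23 (SE), with an edgeR adjusted p of 0.0506.

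Trh (chr6:92242061-92244650), the precursor of the hormone that drives thyrotropin release, had 1.98, 1.71, 0.992 and 6.11 CPM in Old, against 8.22, 19.7, 13.7 and 5.66 CPM in Young. Old 10 lay above Young 5, which was the only overlap. Its log2 fold change was -2.12 ± 0.66 (SE) with an edgeR adjusted p of 0.0765.

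Gal (chr19:3409919-3414472), the galanin precursor, is made in several hypothalamic nuclei and in other brain regions. It had 0.597, 0.559, 0.459 and 0.893 CPM in Old, against 3.70, 4.05, 4.05 and 1.26 CPM in Young, with no overlap. The mean was 0.627 ± 0.187 CPM in Old and 3.27 ± 1.35 CPM in Young (SD, n = 4 each). Gal fell by 2.37 ± 0.51 (SE) on the log2 scale, with an edgeR adjusted p of 0.0158, the smallest among the 10 genes in this comparison.

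In the arcuate group, Pomc (chr12:3954951-3960618), whose product is cut into melanocyte-stimulating hormone and beta-endorphin, had 1.48, 0.912, 1.12 and 1.93 CPM in Old, against 2.86, 6.91, 2.31 and 1.31 CPM in Young. The groups overlapped through Young 5, and the log2 fold change of -1.29 ± 0.62 (SE) did not pass the edgeR test (adjusted p = 0.255). Agrp, the melanocortin receptor antagonist of the arcuate nucleus, had 2.32, 1.47, 1.82 and 1.65 CPM in Old, against 1.73, 1.91, 1.30 and 1.31 CPM in Young. Its values overlapped and its log2 fold change was 0.22 ± 0.20 (SE), with an edgeR adjusted p of 0.606. Ghrh (chr2:157329497-157347506), the growth hormone-releasing hormone gene, was read from 2, 11, 7 and 20 reads in Old, against 17, 47, 26 and 11 reads in Young. In CPM these were 0.0221, 0.162, 0.0868 and 0.213 in Old, against 0.220, 0.520, 0.332 and 0.123 in Young, and the log2 fold change was -1.30 ± 0.75 (SE; edgeR adjusted p = 0.344). Ghrh thus rested on 2 to 47 reads a library in these groups, which limits its precision.

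Isl1 (chr13:116298281-116309689) encodes a LIM-homeodomain factor of arcuate neurons that is also known from cholinergic neurons of the striatum. It had 0.276, 0.265, 0.0496 and 0.776 CPM in Old, against 4.30, 3.86, 2.49 and 1.39 CPM in Young. The highest Old value, in Old 10, lay below the lowest Young value, in Young 5. Isl1 fell by 3.10 ± 0.76 (SE) on the log2 scale, with an edgeR adjusted p of 0.0302.

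The groups did not overlap for Hcrt, Pmch, Gal and Isl1, 4 of 10 genes, against 6.32% of all tested genes that were lower in Old without overlap. When 1 of the 12 libraries was left out at a time, Gal remained called in 12 of 12 fits, with edgeR adjusted p-values from 0.00368 to 0.0477. Isl1 lost its call without Old 7, 8 or 9 or without Young 1, 3 or 4 (adjusted p = 0.0547 to 0.0769 in these fits). Hcrt lost it without any 1 of the 4 Old libraries or without Young 1, 3 or 4 (adjusted p = 0.0695 to 0.1). For Oxt the call was lost without any 1 of the Old libraries, without Young 3 or 4, or without Old_CP2 11 or 12 (adjusted p = 0.0543 to 0.134). In the other direction, Avp was called without Old_CP2 13, Old_CP2 15, Young 1 or Young 5 (adjusted p = 0.0213 to 0.0483), Pmch without Old_CP2 13 (adjusted p = 0.0247) and Trh without Old 10 (adjusted p = 0.0287). The count of called genes ran from 1 to 6 over these fits, with Gal alone called when Old 7, Old 8, Old 9, Young 3 or Young 4 was left out.

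**Figure D3:**
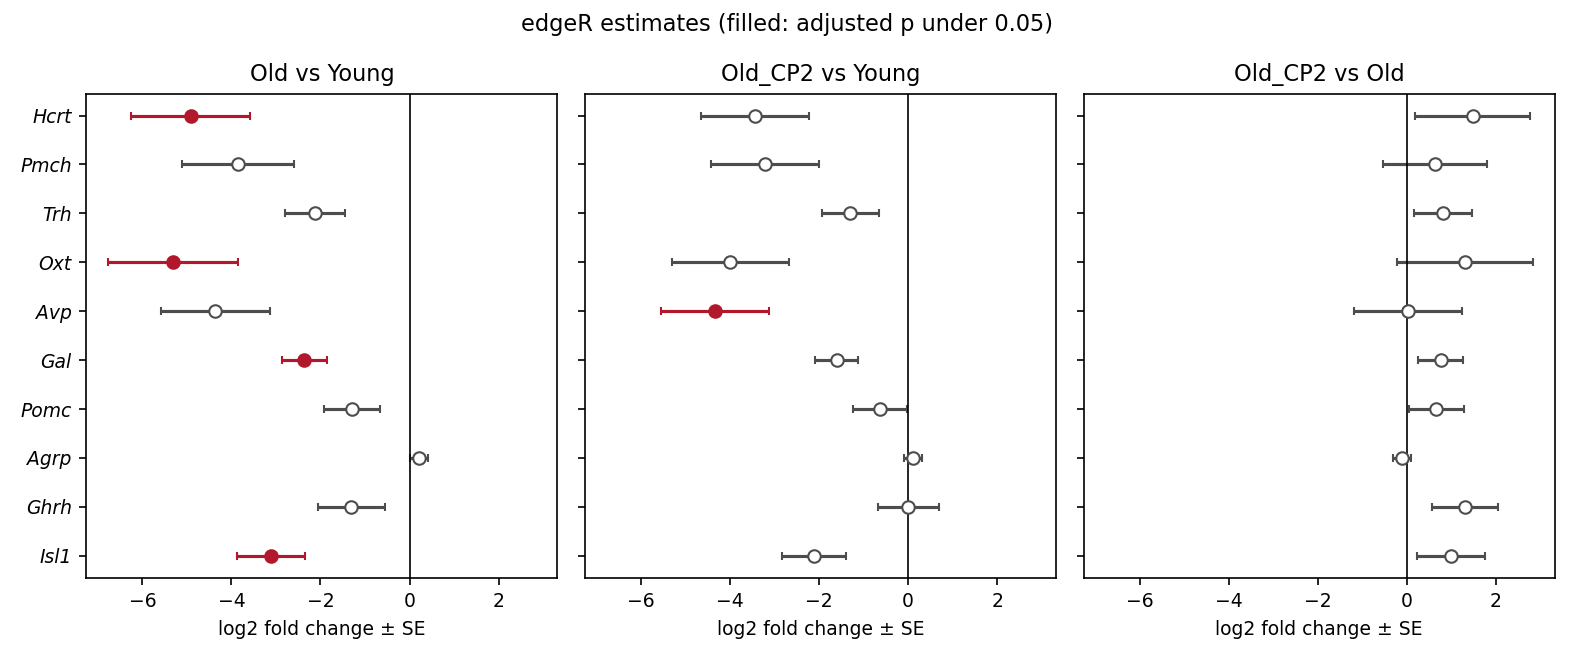
Log2 fold change ± SE from edgeR for each of the 10 genes in Old against Young, Old_CP2 against Young and Old_CP2 against Old, fitted on 12 libraries. Filled points have an adjusted p under 0.05, which are Hcrt, Oxt, Gal and Isl1 in the first panel, Avp in the second and none in the third.

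CP2 was compared with its vehicle at 23 months, and 0 of the 10 genes were called in either direction, against 0.0443% of all tested genes called. Fold changes of 9 of 10 genes were above 0 and that of 1 was below 0, against 49.4% of all tested genes below 0. Their median was 0.79 on the log2 scale, against 0.0017 for all tested genes. At an unadjusted p under 0.05, 0 of 10 differed, against 6.31% of all tested genes, and 0 were called by DESeq2 or limma voom. A single library, Old_CP2 13, held the highest value of the group in 10 of 10 genes and the highest of all 8 libraries at 23 months in 9, all but Agrp.

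Hcrt had 0.0833, 0.224, 5.90 and 0.0372 CPM in Old_CP2, so that Old_CP2 13 was 26.3-fold above the next library and made up 94.5% of the group's sum. Pmch had 0.333, 2.82, 39.0 and 0.583 CPM, and Old_CP2 13 again made up 91.3% of the sum. In both genes Old_CP2 13 lay above every Old library, whose highest values were 1.06 CPM for Hcrt and 14.5 CPM for Pmch. Oxt had 0.114, 0.0917, 1.59 and 0.124 CPM in Old_CP2, and Avp had 0.406, 0.377, 2.88 and 0.198 CPM. In these 2 genes Old_CP2 13 was 12.9-fold and 7.11-fold above the next library of its group.

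Gal had 0.479, 0.601, 2.46 and 0.744 CPM in Old_CP2, Pomc 0.947, 0.906, 5.74 and 1.08 CPM and Isl1 0.0833, 0.519, 1.80 and 0.372 CPM. Old_CP2 13 exceeded the next library 3.31-fold in Gal, 5.32-fold in Pomc and 3.47-fold in Isl1. Trh departed from this pattern, with 1.68, 7.26, 8.88 and 1.35 CPM, since Old_CP2 12 was nearly as high as Old_CP2 13. Ghrh had 0.0416, 0.234, 0.716 and 0.211 CPM in Old_CP2, with 66 reads in Old_CP2 13 and 4 to 23 in the other libraries of the group. Agrp was even, at 1.78, 1.12, 1.96 and 1.90 CPM.

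With all libraries in the fit, the log2 fold change of Old_CP2 over Old was 1.48 ± 1.29 (SE) for Hcrt, 0.64 ± 1.17 for Pmch, 0.82 ± 0.65 for Trh, 1.31 ± 1.53 for Oxt, 0.025 ± 1.22 for Avp and 0.76 ± 0.51 for Gal. It was 0.66 ± 0.62 for Pomc, -0.11 ± 0.20 for Agrp, 1.31 ± 0.74 for Ghrh and 0.99 ± 0.77 for Isl1, with edgeR adjusted p-values from 0.826 to 0.999 over the 10 genes. Without Old_CP2 13, 8 of 10 fold changes were below 0 and their median was -0.34, with -2.22 for Hcrt, -2.43 for Pmch, -0.82 for Oxt and -1.52 for Avp. Trh and Ghrh kept a fold change above 0 in that fit. The sign changed in 7 genes when this library was left out, and 0 of 10 genes were called in that fit as well.

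**Figure D4:**
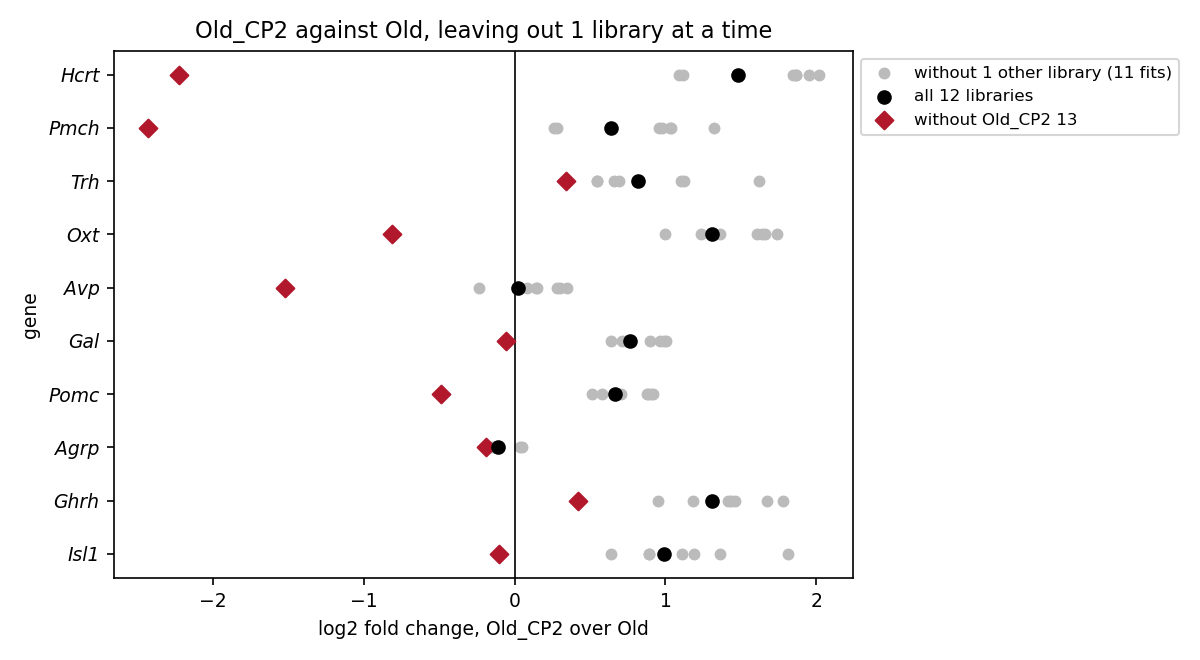
Log2 fold change of Old_CP2 over Old for each gene in the fit of 12 libraries (black), without Old_CP2 13 (red diamonds) and without each of the other 11 libraries (grey). The diamonds of Hcrt, Pmch, Oxt and Avp lie at -2.22, -2.43, -0.82 and -1.52, left of every other fit of the same gene.

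Old_CP2 was also set against Young, a comparison that shares its Young libraries with that of Old against Young. Avp was lower in Old_CP2, with a mean of 0.966 ± 1.28 CPM in Old_CP2 and 19.6 ± 21.5 CPM in Young (SD, n = 4 each), a log2 fold change of -4.34 ± 1.22 (SE) and an edgeR adjusted p of 0.0471. This call was lost in the edgeR fit of the 8 libraries of these groups (adjusted p = 0.0797) and with limma voom, where the log2 fold change was -3.15 (adjusted p = 0.417). Avp was the only 1 of 10 genes called lower, and 0 were called higher, against 2.94% and 4.63% of all tested genes. The median log2 fold change was -1.86 for the 10 genes and -0.0076 for all tested genes, and 7 of 10 lay below -1, against 2.48% of all tested genes. In 0 of 10 genes were the Old_CP2 and Young values free of overlap, against 7.07% of all tested genes that were lower without overlap.

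Among the genes not called, the log2 fold change was -3.44 ± 1.22 (SE) for Hcrt (edgeR adjusted p = 0.108), -3.22 ± 1.21 for Pmch (0.13) and -4.001 ± 1.31 for Oxt (0.0845). Gal had -1.61 ± 0.48 (0.0615), Isl1 -2.11 ± 0.71 (0.0921) and Trh -1.30 ± 0.64 (0.246). The remaining 3 arcuate genes were nearest to 0, with -0.63 ± 0.61 for Pomc (0.588), 0.11 ± 0.20 for Agrp (0.801) and 0.0055 ± 0.69 for Ghrh (0.998).

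Without Old_CP2 13, 7 of 10 genes were lower than in Young by edgeR, namely Hcrt (adjusted p = 0.00683), Pmch (0.00921), Oxt (0.0414), Avp (0.018), Gal (0.00475), Pomc (0.0428) and Isl1 (0.0194). The Hcrt log2 fold change was then -7.14 and that of Pmch -6.29. Without Young 5 the called genes were Oxt, Avp and Gal (adjusted p = 0.0423 and 0.0336 for Oxt and Gal). The call of Avp was lost in 9 of 12 such fits, with adjusted p-values of 0.051 to 0.125, and it was kept without Old_CP2 13, Young 1 or Young 5.

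The other genes of the pathway were read from lists of textbook genes, also chosen with earlier results of these data known. Counts of these lists in Old against Young stand beside 2.74% of all tested genes called lower and 3.96% called higher, and those in Old_CP2 against Young beside 2.94% and 4.63%. Of 23 tested further hypothalamic peptide genes, 5 (21.7%) were lower and 2 (8.7%) higher in Old than in Young by edgeR. The median log2 fold change was -0.43, and 20 of the 23 fold changes were below 0. Many of these genes are also made in cortex, hippocampus or striatum. Those named next had the smallest unadjusted p by edgeR and include the 2 higher ones, so they do not stand for the list. Penk, the enkephalin precursor, averaged 35.3 ± 6.21 CPM in Old and 87.9 ± 23.6 CPM in Young (SD, n = 4 each; edgeR adjusted p = 0.00211). Npy, neuropeptide Y, averaged 22.6 ± 4.16 CPM in Old and 35.6 ± 1.75 CPM in Young (edgeR adjusted p = 0.0062). Grp, gastrin-releasing peptide, and Rln3, a relaxin-family peptide of brainstem neurons, were higher in Old, with log2 fold changes of 0.88 ± 0.11 (SE; edgeR adjusted p = 0.00123) and 2.51 ± 0.50 (adjusted p = 0.0115). In Old_CP2 against Old, 0 of the 23 genes were called, and against Young 4 were lower and 2 higher.

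Of 34 tested transcription factors of the hypothalamus and its neighbours, 3 were lower and 3 higher in Old, 8.82% in each direction. The median log2 fold change was -0.67, and 26 of the 34 fold changes were below 0. The genes named next had the smallest unadjusted p by edgeR and include all 3 higher ones, so they do not stand for the list. Lhx8, a LIM-homeodomain factor of basal forebrain cholinergic neurons, fell by 3.29 ± 0.72 (SE) on the log2 scale (edgeR adjusted p = 0.0185). Barhl1, which marks the mammillary region but also hindbrain neurons, rose by 1.98 ± 0.23 (edgeR adjusted p = 0.000806), and Irx5 rose by 0.69 ± 0.12 (adjusted p = 0.00743). Arnt2, a partner of Sim1 in neurosecretory neurons that is expressed widely in brain, averaged 334 ± 18.9 CPM in Old and 283 ± 11.6 CPM in Young (edgeR adjusted p = 0.0123). In Old_CP2 against Old, 0 of 34 were called, and against Young 2 were lower and 2 higher.

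Receptors of the peptides and the enzymes that process them were read in the same way. Among 16 tested receptors of these peptides, 1 was lower and 0 were higher in Old, with a median log2 fold change of -0.29. The 1 lower gene is 6.25% of the list, and the difference from the 2.74% of all tested genes rests on that single gene. That gene was Galr2, a galanin receptor, at 0.658 ± 0.0808 CPM in Old and 1.51 ± 0.169 CPM in Young (SD, n = 4 each; edgeR adjusted p = 0.00682). Hcrtr2, an orexin receptor, averaged 4.77 ± 0.447 CPM in Old and 3.40 ± 0.685 CPM in Young (adjusted p = 0.0536) and did not pass the test. Neither did Trhr2, a receptor of thyrotropin-releasing hormone, at 1.94 ± 0.397 CPM in Old and 2.99 ± 0.862 CPM in Young (edgeR adjusted p = 0.078), nor the oxytocin receptor gene Oxtr, at 7.90 ± 1.56 CPM in Old and 10.2 ± 0.943 CPM in Young (adjusted p = 0.137). Against Young, 2 receptors were lower and 1 higher in Old_CP2, and against Old 0 were called.

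Of 16 tested enzymes and granule proteins that handle peptide precursors, 0 were lower and 2 (12.5%) higher in Old, with a median log2 fold change of -0.0084. Pcsk6, a proprotein convertase, rose by 0.45 ± 0.08 (SE) on the log2 scale (edgeR adjusted p = 0.00523), and Scg3, a granule protein, rose by 0.22 ± 0.05 (adjusted p = 0.0251). The granule genes Vgf and Scg2 had log2 fold changes of -0.33 ± 0.10 (adjusted p = 0.0693) and -0.27 ± 0.08 (0.0745). In Old_CP2 against Old, 0 were called, and against Young 1 was lower and 1 higher.

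Markers of other brain regions were read beside the 10 genes. Of 17 thalamus and habenula markers, which share Tac2 with the peptide list, 7 were lower and 0 higher in Old by edgeR, with a median log2 fold change of -0.60. Their summed level was 636 to 1025 CPM in Old_CP2, 698 to 1021 CPM in Old and 1153 to 1575 CPM in Young. The highest sums within Old_CP2 and Old came from Old_CP2 13 and Old 10, the libraries that most often led their groups in the 10 genes. These libraries also led in the sums of the amygdala and bed nucleus, further peptide, transcription factor and receptor lists. A few abundant genes weigh heavily in some of these sums. In Old, Peg3 and Arnt2 averaged 506 and 334 CPM, beside a median transcription factor sum of 957 CPM. Cck averaged 147 CPM in Old, beside a median further peptide sum of 464 CPM. In the remaining lists another library led in 1 or both of these groups. Young 5, with 1265 CPM of thalamus and habenula markers, was not the lowest of its group. Of 17 striatal markers, a list that shares Penk and Tac1 with the peptide genes above, 10 were lower and 0 higher, with sums of 424 to 500 CPM in Old_CP2, 444 to 509 CPM in Old and 557 to 850 CPM in Young, Young 5 being the lowest Young library. Among 14 amygdala and bed nucleus markers, 4 of which (Crh, Nts, Sst and Tac2) are also on the peptide list, 3 were lower and 2 higher. Their sums were 422 to 544 CPM in Old_CP2, 420 to 574 CPM in Old and 633 to 797 CPM in Young. Prkcd and Tac2 are on the thalamus and habenula list as well. Prkcd alone averaged 69.3 CPM in Old_CP2, 66.3 CPM in Old and 230 CPM in Young, so this sum is not separate from the thalamic one.

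Choroid plexus and ependymal markers, which line the ventricles, summed to 259, 1482, 1458 and 378 CPM in Old_CP2, 572, 1846, 294 and 1570 CPM in Old and 2068 to 3309 CPM in Young, and 2 of 18 were lower and 0 higher in Old. Midbrain and hindbrain markers ran the other way, with 12 of 15 tested genes higher and 0 lower in Old and sums of 81.0 to 242 CPM in Old_CP2, 88.6 to 167 CPM in Old and 9.98 to 36.2 CPM in Young. The 13 tanycyte and median eminence markers gave 0 lower and 1 higher, with sums of 507 to 562 CPM in Old_CP2, 509 to 570 CPM in Old and 478 to 564 CPM in Young. Of 15 pituitary markers, 7 passed the filter, 1 of these was higher and 0 were lower in Old, and sums stayed between 5.54 and 11.1 CPM in all libraries. No marker of these lists was at 0 in every library. In Old_CP2 against Old, 0 genes of any of the 12 lists were called. The part of these markers in the differences of the 10 genes was not tested.

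**Figure D5:**
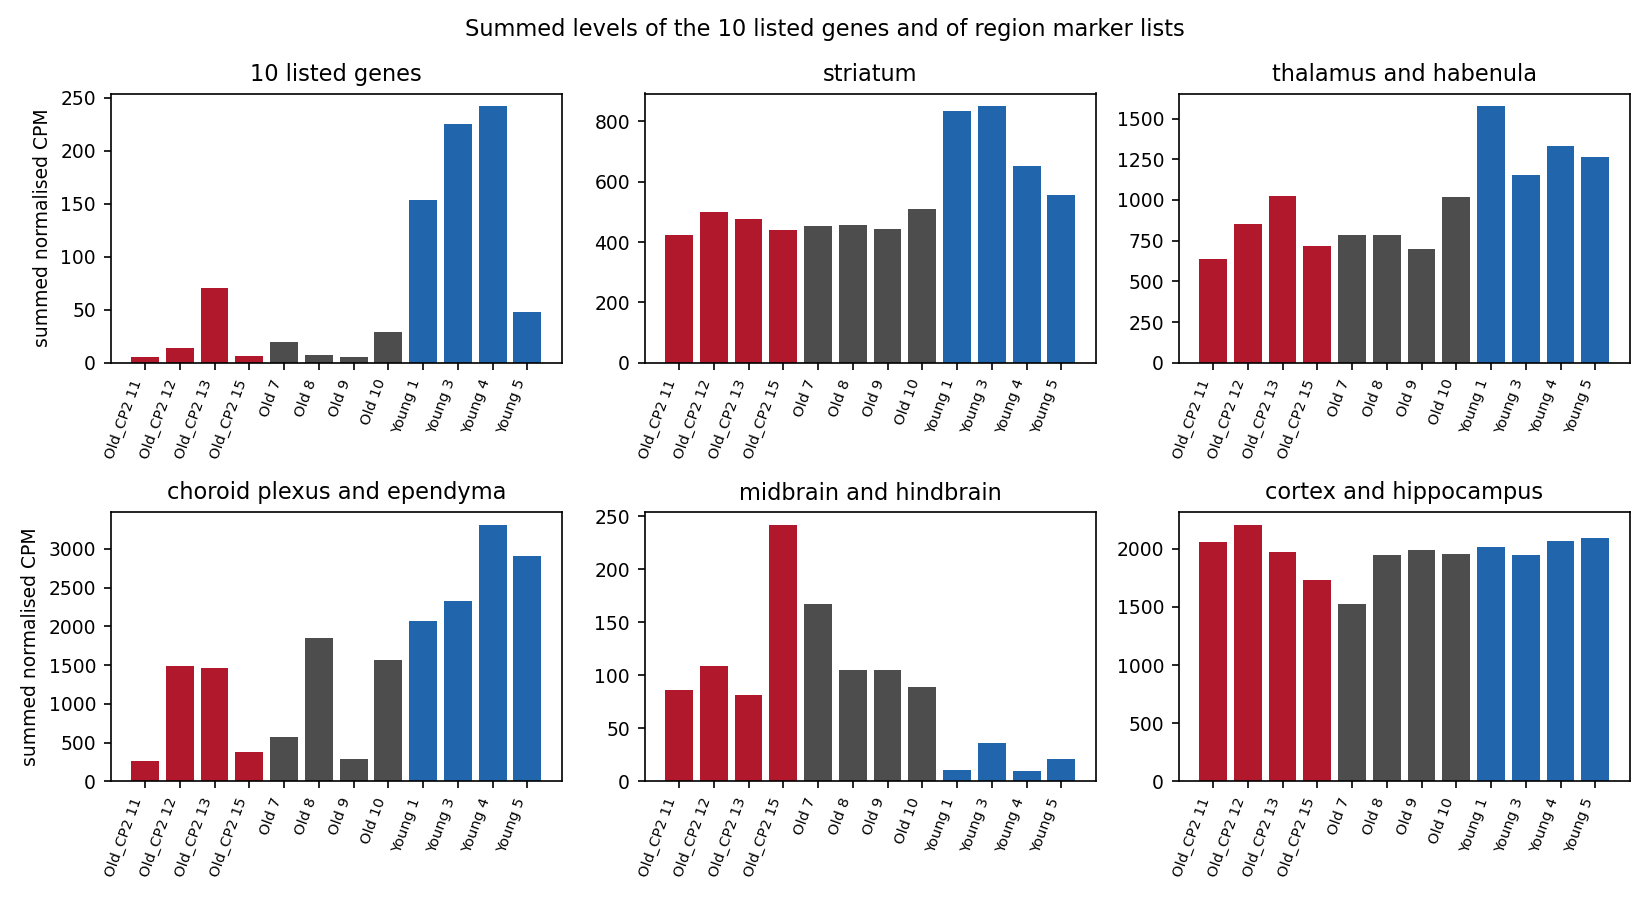
Summed normalised CPM per library of the 10 listed genes and of 5 lists of region markers, with Old_CP2 bars on the left, Old in the middle and Young on the right. The 10 genes reach 71.0 CPM in Old_CP2 13 and 242 CPM in Young 4, the midbrain and hindbrain sum is highest in Old_CP2 15 at 242 CPM, and the cortex and hippocampus sum stays between 1530 and 2207 CPM.

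A further edgeR fit left out Old 7, Old 9, Old_CP2 11 and Old_CP2 15, the 4 libraries with the lowest choroid plexus and ependymal sums. In that fit 0 of 10 genes were called in Old against Young. Over all genes it gave 512 calls in that comparison, against 1511 with all 12 libraries. This set of libraries was chosen after the data had been seen, and it leaves 2 libraries each in Old_CP2 and Old. The log2 fold changes were then -4.83 for Hcrt (adjusted p = 0.117), -4.78 for Oxt (0.265), -2.14 for Gal (0.108) and -2.48 for Isl1 (0.0766). Their median over the 10 genes was -2.31, against -2.74 with all 12 libraries. In Old_CP2 against Young the call of Avp was lost as well (adjusted p = 0.239).

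Likeness between expression patterns was measured as the root mean square difference of centred log2(CPM + 0.5) over the 12 libraries, for 14028 named genes with a mean of at least 1 CPM, the 10 genes themselves left out. Nkx2-1, a homeodomain factor of the developing ventral hypothalamus, had the nearest pattern among these to Isl1 (0.301), Gal (0.341) and Trh (0.452), where the median of all genes was 1.06, 0.883 and 1.21. It averaged 1.00 CPM in Old_CP2, 0.723 CPM in Old and 3.09 CPM in Young. Parpbp was nearest to both Pmch (0.439) and Hcrt (0.623), but it shares exon bases with Pmch. In Young, Parpbp had 5727, 7264, 8147 and 2261 reads, beside 8166, 10245, 11363 and 3083 for Pmch. How much of the Parpbp pattern came from Pmch reads was not tested, so it is not read here as that of a separate gene. Otp, a factor of neurosecretory neurons, was the nearest of these candidates to Oxt at 1.13, where the median was 1.68, and Gpr151, a receptor gene of the habenula, was nearest to Avp at 1.35 against a median of 1.95.

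For Pomc the nearest patterns were those of Asb4 (0.36) and Magel2 (0.399), both known from the hypothalamus, where the median was 0.798. On this scale Agrp and Ghrh had the smallest spread over the libraries, with SDs of 0.229 and 0.356. Ghrh ran from 0.0221 to 0.716 CPM, and adding 0.5 flattens differences at such low levels, so Ghrh was not even in the way Agrp was. Their nearest values were 0.121 for Dusp10 and 0.19 for BC067074 against medians of 0.251 and 0.358. Within the 10 genes, Gal and Isl1 differed by 0.313 and Oxt and Avp by 0.536, which brings Gal nearer to Isl1 than to Nkx2-1 and Oxt and Avp nearer to each other than to any candidate, while Hcrt and Pmch differed by 0.975. These distances are descriptions over 12 libraries that share their group differences.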

How the data were processed

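RNA was sequenced in 12 mouse brain libraries, 4 per group, as paired-end reads of 101 bases per the labels' protocols. Per the submitters' processing notes, the authors used bcl2fastq, TopHat and Subread's featureCounts with mm10, with versions and annotation release not given in the sources used here. Per the file headers, the authors deposited a gene count, an RPKM value and a gene length for each gene. The counts were whole numbers and were tested as deposited, while RPKM values served to order genes by level per length.

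The counts of 12 libraries entered 1 fit with edgeR 4.0.16 (R 4.3.3), after filterByExpr by group and TMM scaling, with no term besides the group. The quasi-likelihood test was two-sided, p-values were adjusted by Benjamini and Hochberg's method over 22553 genes, and calls required an adjusted p below 0.05. SE values come from the F statistic, and CPM values use TMM-scaled library sizes. DESeq2 1.42.0, limma voom (limma 3.58.1), RLE size factors, no filter, fits of 8 libraries and fits without each library were the alternatives. The test was tried on simulated counts of the Old and Young comparison with 200 changed genes among 22553, drawn from those with a mean of at least 20 reads, so the shares do not cover genes below that. It recovered 88% of the 2-fold and 99% of the 4-fold changes, and false calls made up 3.61%. Libraries within a group were not copies of each other, since the smallest chi-square per gene over 18 pairs was 14.7.

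The 10 genes and the 12 lists were chosen with earlier results of these data known. All 10 genes are named in every comparison, and up to 4 genes of a list by smallest unadjusted p in Old against Young. Peg3 and Cck are named besides these for their weight in the sums of their lists. The region markers are given as counts and sums only, apart from the means of Prkcd, which is on both the thalamus and the amygdala list. A mean is also given for Slc17a7, a large part of the cortex and hippocampus sum. Of 224 list entries 223 were found in the table, Galr3 not being matched. For each of the 10 genes the 3 nearest patterns were sought, of which the first or first 2 are printed, and gene models without a proper name were left out. Positions are on mm10, and overlapping exons were read from GENCODE vM21.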

Additional observations from a re-analysis of the deposited data

Results flagged for a closer look

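Within each group of 4 libraries, a value was picked out when, on the log2(CPM + 0.5) scale, its gap to the nearest other value, divided by the range of the group, was above Dixon's critical value for that number. Chance picks out about 1 in 20 groups, and 6 of 30 were picked out here, in genes that vary together and so are not independent. Old_CP2 13 stood high in 4 genes. Hcrt had 5.9 CPM there, against 0.0372 to 0.224 CPM in the other 3 libraries of its group (gap over range 0.88 on that scale). Oxt had 1.59 CPM, against 0.0917 to 0.124 CPM (0.958). Avp had 2.88 CPM, against 0.198 to 0.406 CPM (0.835). Pomc had 5.74 CPM, against 0.906 to 1.08 CPM (0.923). On the low side, Avp had 0.372 CPM in Old 9, against 1.06 to 1.22 CPM in the other Old libraries (0.857), and Gal had 1.26 CPM in Young 5, against 3.7 to 4.05 CPM in the other Young libraries (0.916).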

How the results depend on the processing

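No paired analysis was possible because the groups share no replicate numbers. In Old against Young, 4 genes were called lower with all libraries, TMM and the filter, and 7 with DESeq2 (Hcrt, Pmch, Trh, Oxt, Avp, Gal and Isl1), 3 with limma voom (Pmch, Gal and Isl1), 4 in the fit of 8 libraries (Hcrt, Pmch, Gal and Isl1), 0 without the 4 libraries poorest in choroid plexus transcripts (chosen after seeing the data) and 1 to 6 when 1 library was left out. In Old_CP2 against Young, 1 was called, against 3 with DESeq2 (Oxt, Avp and Gal), 3 with limma voom (Pmch, Gal and Isl1), 0 in the fit of 8 libraries, 0 without those 4 libraries and 0 to 7 with 1 left out. In Old_CP2 against Old the count was 0 throughout. Over all genes, Old against Young gave 1511 calls, 2474 with DESeq2, 512 without the 4 libraries and 862 to 1730 with 1 left out. Old_CP2 against Young gave 1707, 2652 with DESeq2, 732 without the 4 libraries and 868 to 1913 with 1 left out. Old_CP2 against Old gave 10, 17 without the filter, 108 with DESeq2, 21 without the 4 libraries and 6 to 38 with 1 left out. Signs changed in 3 cases with limma voom, Pmch (-0.56) and Avp (-0.64) in Old_CP2 against Old and Ghrh (-0.41) in Old_CP2 against Young. Without the 4 libraries Agrp changed sign in Old (-0.00033) and Old_CP2 (-0.018) against Young. With 1 library left out, log2 fold changes of Old_CP2 over Old ran from -2.22 to 2.02 for Hcrt, -2.43 to 1.32 for Pmch, -0.82 to 1.74 for Oxt, -1.52 to 0.35 for Avp, -0.057 to 1.005 for Gal, -0.49 to 0.92 for Pomc, -0.20 to 0.047 for Agrp and -0.10 to 1.81 for Isl1. Over Young they ran from -0.89 to 0.42 for Ghrh and -1.78 to 0.0084 for Pomc. The cause of these shifts was not tested. Ghrh, with as few as 2 reads in a library, is limited by depth.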
